A study of Solanum tuberosum with 72 samples.

Results

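The 119 spots described here were strongly negative in potato root late in cold and near their controls in 3 other comparisons, and they were chosen from 13585 spots that could be followed in every group, out of 32448 on the array. For each spot, d was the mean log2 ratio of the 3 stress arrays minus that of the 3 control arrays matched for tissue and time. A spot was kept where d was -0.9 or lower after 27 h of cold in root, and lay between -0.5 and 0.5 after 3 h of cold in root, 27 h of cold in leaf and 27 h of heat in root. A spot could be followed where each of the 24 groups had at least 2 values. Those 4 comparisons chose the members, so their values are given as a description and were not tested.

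Seedlings of potato (Solanum tuberosum, variety Gilroy) were grown from true seed on hydroponic medium for 5 weeks at 25 °C, with 16 h of light and 8 h of dark. Cold-stressed seedlings had their medium replaced by medium at 4 °C and stood on ice, heat-stressed seedlings had theirs replaced by medium at 35 °C, salt-stressed seedlings received NaCl, and control seedlings had a plain change of medium, which all groups share. Labels disagree on the NaCl level, which is 100 mM in the description and 150 mM in the treatment field. Roots and leaf, which was all aerial tissue, were taken after 3, 9 and 27 h, a sample pooled 6 plants, and the experiment was done independently 3 times, so each of the 24 groups has 3 arrays. Cy3 carried the RNA of the sample and Cy5 that of a pool of unstressed plants matched for tissue, time and experiment. Which dye is the numerator of the deposited ratio is not stated, so "negative" means that the log2 ratio was lower under stress than in the control and is not a statement that RNA fell. Whole roots and whole aerial parts were sampled, so a different mix of cell types and a different amount of RNA per cell cannot be told apart.

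Potato tolerates cool seasons, but chilled roots take up less water and grow more slowly, and cold changes the transcripts of membrane, wall, transport and antioxidant genes in stages, with early regulators first and metabolic genes later. Which genes answer cold in the root and not in the shoot, and how late, is the question the 119 spots bear on. In Arabidopsis many cold-responsive genes differ between root and shoot.

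Depth cannot be given for ratios without intensities, and precision is set by how many arrays there are. Arrays had 15580 to 20545 measured spots and medians of 0.0 to 0.014 over all of them, or of -0.028 to 0.029 over the spots followed. Of the 119 spots, 81 (68.1%) had a value on all 72 arrays, against 67.9% of the 13585, and no member had fewer than 61 values. Leaf cold 9 h replicate 1 measured 105 of the 119, the fewest of any array. The tissue labels could not be checked, because each ratio is taken against a reference of the same tissue. The 12 spots of PSBR, a photosystem gene, had values on a median of 25 leaf arrays and 36 root arrays, which does not separate the tissues either.

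Most spots were printed as a pair with the same DNA, so the 119 spots are not 119 genes. The 119 spots fell in 90 printed pairs. In 29 pairs both spots met the rule, which accounts for 58 members, and 61 members stood alone. Among the partners of those 61, 26 missed only the bound of -0.9 after 27 h of cold in root, 15 missed only a bound of 0.5 elsewhere, 6 missed both and 14 lacked values. The partners of single members nonetheless lay between -1.49 and -0.47 after 27 h of cold in root (median -0.85, 60 measured). Members sat in all 12 blocks of the array, with 5 to 16 in each. Only 5 of the 119 (4.20%) have a gene symbol in the array's annotation, against 9.39% of the 13585, so most results are given by spot number.

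Many spots lay close to the bound of -0.9, on both sides of it. The members just inside it were spots 151453 and 160738, with d of -0.90 each, and the spots just outside it were 150953 and 136534, also at -0.90 to 2 decimals. A total of 58 members lay between -1.0 and -0.9, and 88 spots that met the other bounds lay between -0.9 and -0.8. Near the bounds of 0.5, 20 members had an absolute d of 0.4 or more after 3 h of cold in root, 23 after 27 h of cold in leaf and 18 after 27 h of heat in root.

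After 27 h of cold in root, the values that chose the members ran from -1.88 to -0.90 with a median of -1.01. Their mean log2 ratios had a median of -1.04 on cold arrays and 0.03 on control arrays, so the control roots lay near the unstressed reference. Every cold array lay below every control array for 118 of the 119, against 25.9% of all spots followed. The 3 experiments gave like medians of -1.07, -1.17 and -1.09 for the difference of same-numbered cold and control arrays. The bound of -0.9 was set on these same arrays, so the choice of members favours both the lack of overlap and the low medians.

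The pair with the most negative mean after 27 h of cold in root was 144738 and 146597. Spot 144738 read -2.32, -1.64 and -1.598 on the cold arrays, against 0.07, -0.12 and 0.12 on the control arrays. Spot 146597 read -2.18, -1.43 and -1.69 on the cold arrays, against 0.03, -0.09 and 0.06 on the control arrays. Replicate 1 was the lowest cold array for both spots, and cold and control did not overlap. The same pair was positive at 3 h, with 144738 at 0.51, 0.41 and 0.28 in cold roots and 0.10, -0.30 and 0.11 in control roots. The next pair, 139375 and 141234, had d of -1.57 and -1.49, and its control arrays lay above zero. Spot 139375 read -1.32, -1.598 and -1.03 in cold roots and 0.11, 0.35 and 0.30 in control roots.

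**Figure D1:**
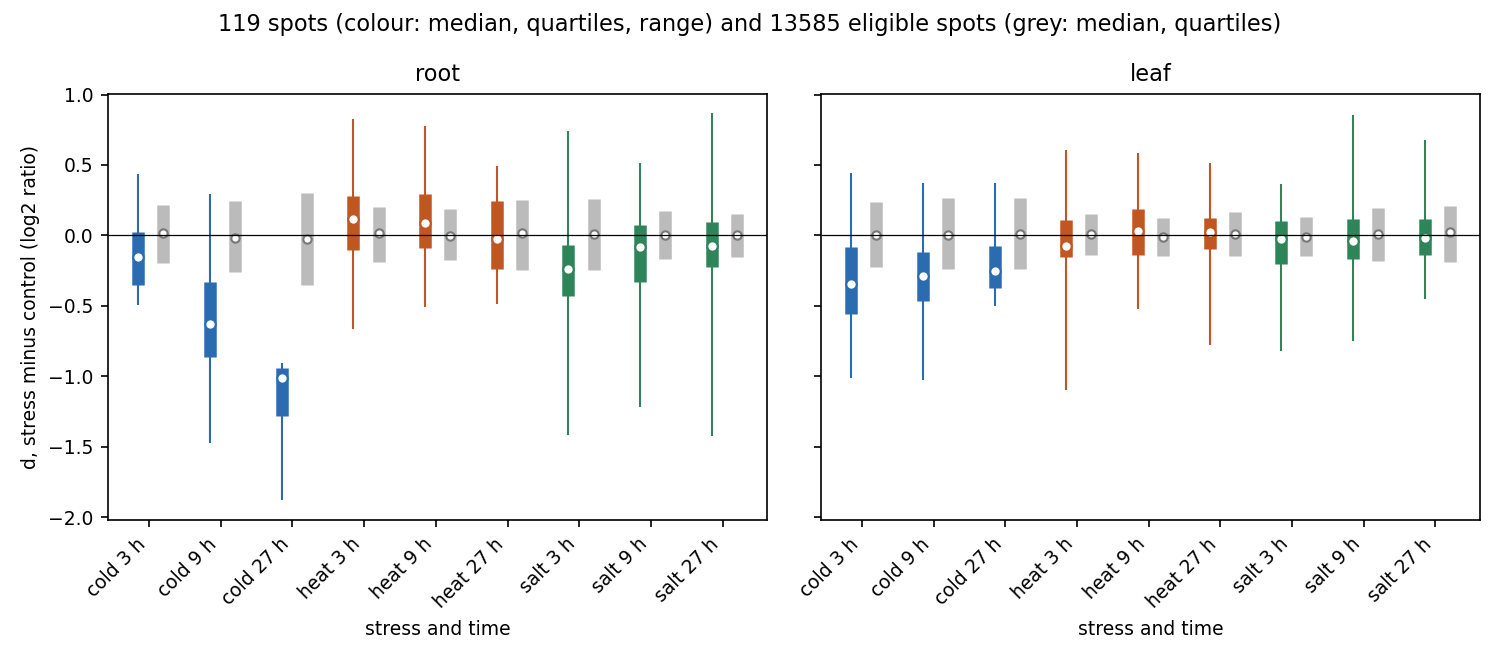
Difference d (stress minus control, log2 ratio, y axis) over the 18 comparisons (x axis) in root and leaf, for the 119 spots (coloured line, range; bar, quartiles; circle, median) and the 13585 spots followed (grey bar, quartiles; circle, median). The members' median lay at -0.15, -0.63 and -1.01 over 3, 9 and 27 h of cold in root and at -0.34, -0.29 and -0.25 in leaf, while the medians of all spots stayed within 0.03 of zero.

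The time that the rule did not use, 9 h, asks whether these spots were late. They were already negative in root at 9 h of cold, with a median d of -0.63 (quartiles -0.86 and -0.33), against -0.02 over all spots followed. limma called 75 of the 119 negative (63.0%) and none positive, against 11.9% of 14866 root spots called negative and 13.7% called positive. At an unadjusted p under 0.05 the counts were 86 negative and 0 positive. Unadjusted counts, here and below, were made for the members only, so they have no share over all spots beside them. Every cold array lay below every control array for 85 members, against 20.9% of all spots followed. The median was -0.61, -0.60 and -0.70 in experiments 1, 2 and 3.

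How far the spots had moved by 9 h varied widely, from -1.47 to 0.29. A d of -0.9 or lower was already present for 27 members, 23 lay between -0.3 and 0, and 6 were above 0. Values at 9 h were a median 0.53 of those at 27 h. The 27 h value was the lower for 106 members and the 9 h value for 13, and 87 members ran downward in order from 3 to 9 to 27 h. The choice of members favours these orders, since it set a low value at 27 h and a value near zero at 3 h.

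**Figure D2:**
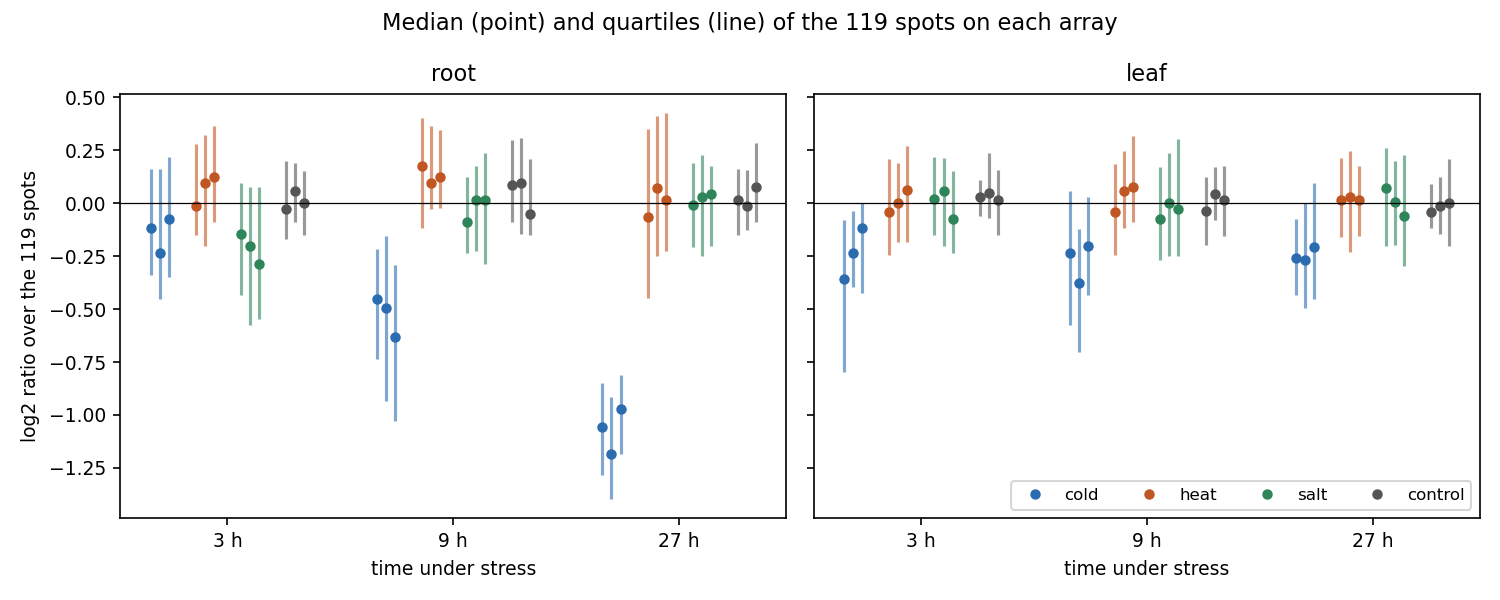
Median (point) and quartiles (line) of the log2 ratio of the 119 spots on each of the 72 arrays, by time (x axis) and by stress or control (colour), with 3 replicates a group. In root, the 3 cold arrays lay at -0.63 to -0.45 at 9 h and at -1.18 to -0.97 at 27 h, below all other arrays of their time, and control arrays lay between -0.05 and 0.10.

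Of the 29 printed pairs, 19 had both spots called in root at 9 h of cold, with the share over all printed pairs not counted. The most negative pair, 148904 and 149748, was less negative at 27 h than at 9 h, a difference that was not tested. Spot 148904 read -0.81, -1.09 and -1.79 in cold roots at 9 h, against 0.16, 0.20 and 0.00 in control roots (d = -1.35 ± 0.33 SE, limma adjusted p = 0.00288, n = 3 each). Spot 149748 read -0.81, -1.29 and -1.94, against 0.12, 0.15 and 0.08 (d = -1.47 ± 0.33 SE, limma adjusted p = 0.00109). Cold and control did not overlap, although the cold arrays spread over about a log2 unit, and at 27 h these spots had d of -0.93 and -0.96.

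The pair 153389 and 155248 was the next most negative and the more even one between arrays. Spot 153389 read -1.03, -1.18 and -1.32 in cold roots at 9 h, against -0.09, -0.01 and -0.07 in control roots (d = -1.12 ± 0.19 SE, limma adjusted p = 5.14e-05). Its partner 155248 had d of -1.17 ± 0.20 SE (limma adjusted p = 4.7e-05). At 27 h the 2 spots had d of -1.27 and -1.22, with the difference between the times not tested. The other end of the range among the pairs was held by 135045 and 135889, with d of 0.04 and 0.14 at 9 h and -0.94 and -0.93 at 27 h. Spots 150341 and 151185 also lay near zero, with d of -0.12 and -0.06 at 9 h and -0.94 and -0.96 at 27 h.

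**Figure D3:**
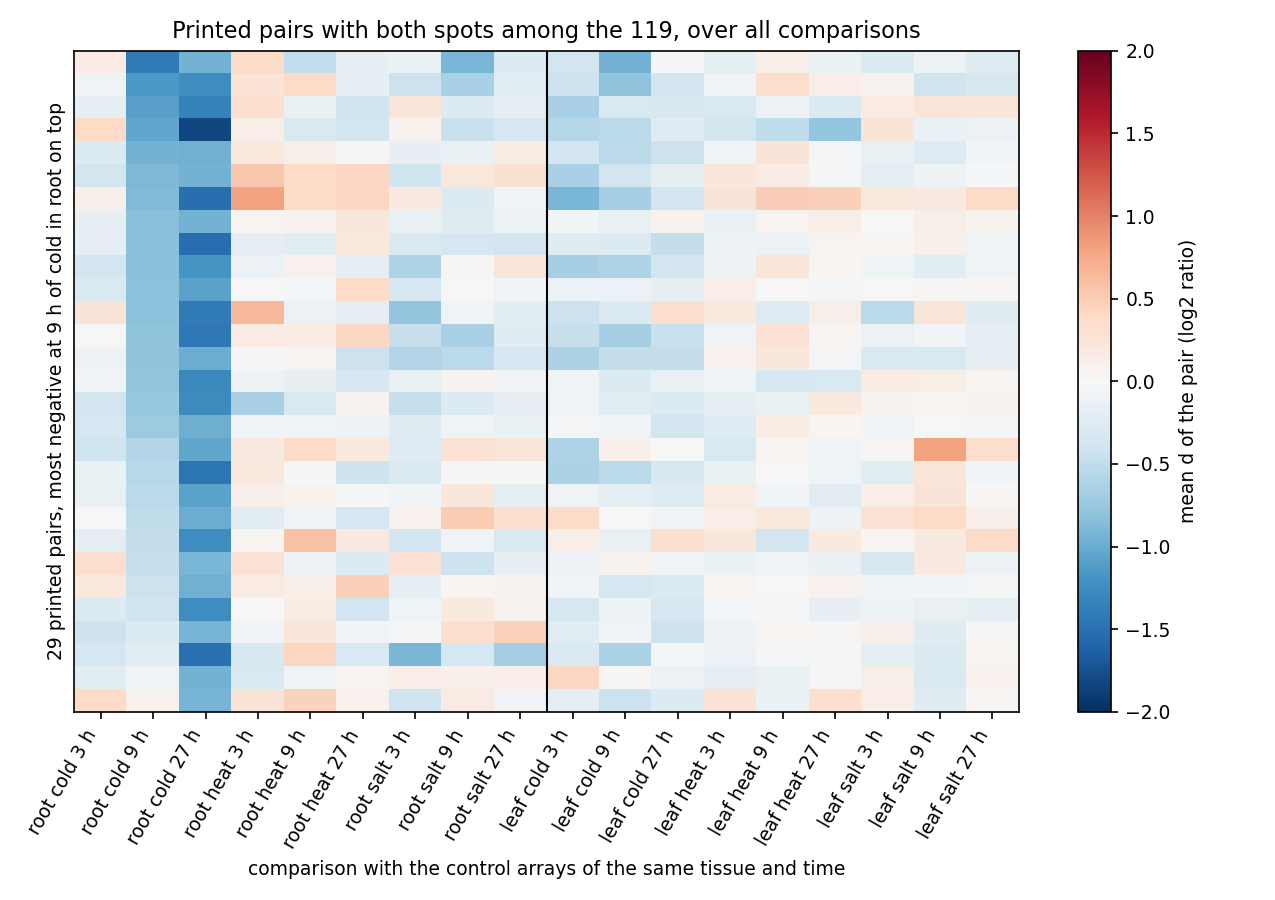
Mean d (log2 ratio, colour) of the 29 printed pairs with both spots among the 119 (rows, ordered by root cold 9 h) over the 18 comparisons (columns; root left of the line, leaf right). The column of root cold 27 h was chosen to be negative; the column of root cold 9 h runs from strongly negative to near zero, and leaf cold 3 h and 9 h are negative in most rows.

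Whether these spots were confined to root was asked of the 3 h and 9 h leaf arrays, which the rule did not use. In leaf, too, the spots were mostly negative under cold. The median d was -0.34 at 3 h and -0.29 at 9 h, against 0.00 and 0.01 over all spots followed, and 101 and 105 of the 119 were below 0. At 27 h, where the rule held them between -0.5 and 0.5, the median was -0.25 and 15 were above 0.

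limma called 28 members negative and 2 positive in leaf at 3 h of cold, against 6.85% and 9.17% of 15601 leaf spots. As shares of the 119, these counts are 23.5% and 1.68%. Leaf cold replicate 1 had the lowest member median of the 3 cold arrays, at -0.36, and the total of both directions was 15 without it and 17 without leaf control 3 h replicate 2. At 9 h of cold every cold array lay below every control array for 47 members, against 17.3% of all spots followed. limma called 27 negative (22.7%) and 0 positive, against 10.7% and 11.8% of leaf spots, and at an unadjusted p under 0.05 there were 49 negative and 0 positive. Here replicate 2 was the lowest cold array (-0.38), and the count was 15 without it and 14 without leaf control 9 h replicate 2. Quantile scaling between arrays gave 4 and a fit to the compared groups alone gave 12.

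The pair 142426 and 144285 was the most negative called pair in leaf at 3 h of cold. Spot 142426 read -1.36, -0.36 and -0.29 in cold leaf, against 0.08, 0.40 and 0.28 in control leaf (d = -0.92 ± 0.26 SE, limma adjusted p = 0.0146). Its partner 144285 had d of -0.90 ± 0.28 SE (limma adjusted p = 0.0245). The groups did not overlap, but replicate 1 lay about a log2 unit below the other cold arrays, and the adjusted p of 144285 missed the threshold under quantile scaling. The pair 150341 and 151185 was called positive at 3 h, with d of 0.40 ± 0.14 SE and 0.43 ± 0.13 SE (limma adjusted p = 0.0463 and 0.018), a call that was lost under quantile scaling. Spot 150341 read 0.48, 0.38 and 0.11 in cold leaf, against -0.03, 0.00 and -0.22 in control leaf.

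At 9 h of cold in leaf the most negative called pair was again 153389 and 155248. Spot 153389 read -1.15, -0.97 and -0.67 in cold leaf, against -0.10, 0.03 and -0.15 in control leaf (d = -0.85 ± 0.21 SE, limma adjusted p = 0.00283). Spot 155248 had d of -0.77 ± 0.21 SE (limma adjusted p = 0.00812). Both spots were thus clear of their controls in root and in leaf at the same time, although neither call in leaf held under quantile scaling.

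A total of 44 members were called negative in leaf at 3 h or 9 h of cold, 11 of them at both times. Of those 44, 34 were also called in root at 9 h, which is 77.3% of the leaf calls and 45.3% of the 75 root calls. Since 63.0% of all 119 were called in root, a high share among the leaf calls needs no link between the tissues. The overlap was not tested, and its share over all spots was not counted. A call in root at 9 h and neither leaf time was made for 41, and 34 members were called in none of the 3. A call in one tissue and none in the other does not show that the tissues differed, so the difference was tested directly.

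The change under cold at 9 h in root minus that in leaf was lower in root for 97 of the 119. The median difference was -0.36, against -0.03 over all spots tested. limma called 9 members (7.56%) more negative in root and 0 more positive, against 4.09% and 4.95% of 13585 spots. At an unadjusted p under 0.05 the counts were 31 and 4, with the share over all spots not counted. A description as root-only and late thus rests on the 3 h and 27 h values that chose the spots. At 9 h most were already negative in root, many were negative in leaf, and the direct test called a small part of them different between tissues, so they are called here by their rule. Without single arrays the total of both directions ranged from 4 (root control 9 h replicate 2) to 11 (without leaf cold 9 h replicate 2, all negative, or root cold 9 h replicate 1, with 9 negative and 2 positive), and it was 5 without leaf cold replicate 1, leaf control replicate 3, root cold replicate 3 or root control replicate 1 of that time. Only the compared groups, or only spots with 3 values in every group, gave 4 each, and quantile scaling gave 0. Over all 13585 spots quantile scaling called 223, against 1227 in the main fit.

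**Figure D4:**
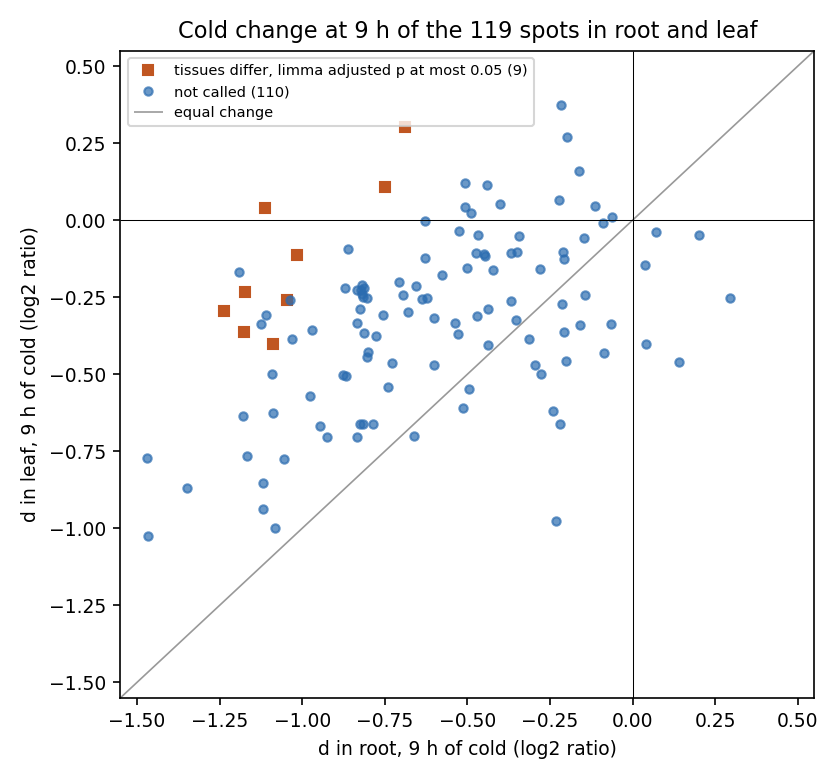
d at 9 h of cold in root (x axis) against d at 9 h of cold in leaf (y axis), both log2 ratios, for the 119 spots; squares mark the 9 called different between tissues by limma, circles the other 110, and the grey line equal change. The points lie mainly left of the line and below zero on both axes, and the 9 squares run from -0.40 to 0.30 in leaf.

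The 9 spots called different between tissues had d of -1.24 to -0.69 in root and of -0.40 to 0.30 in leaf. Spot 140595 had the largest difference, at -1.15 ± 0.29 SE (limma adjusted p = 0.00688). It read -0.84, -1.47 and -1.36 in cold roots and -0.18, -0.09 and -0.06 in control roots, but 0.39, 0.60 and -0.10 in cold leaf and 0.21, 0.00 and 0.56 in control leaf. Cold and control overlapped in leaf and not in root. Spot 162204 had d of -0.69 in root and 0.30 in leaf, where it was not called (difference -0.99 ± 0.31 SE, limma adjusted p = 0.0305). Its partner 161360 had -0.47 in root and -0.11 in leaf. The partners of the 9 gave differences from -1.70 to -0.37, all negative, but in none of the 29 pairs with both spots among the members were both spots called. That covers the partners of 162204, 132594 and 151453 alone, and the share over all printed pairs was not counted. The partners of the other called spots are not members, and no test of them is given here.

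Heat and salt at 9 h, also outside the rule, asked whether the same root spots responded to other stresses. Under heat in root the members' median d was 0.09, and limma called 0 negative and 4 positive, against 2.07% and 3.67% of root spots. The members' share of positive calls was 3.36%, near that background, and the unadjusted counts were 0 and 16. Under quantile scaling 13 members were called, 12 of them positive, while calls over all 14866 root spots rose from 854 to 2306. The members' total of both directions was 2 with only the compared groups and 0 without root heat 9 h replicate 1. It was 2, 1 and 2 without root control 9 h replicates 1, 2 and 3. The pair with both spots called was 134181 and 136040. Spot 134181 read 0.44, 0.06 and 0.00 in heated roots, against -0.25, -0.60 and -0.56 in control roots (d = 0.64 ± 0.15 SE, limma adjusted p = 0.0114). Spot 136040 had d of 0.53 ± 0.14 SE (limma adjusted p = 0.0224), and under cold at 9 h the 2 spots had d of -0.37 and -0.58.

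Under salt in root at 9 h the median d was -0.08, and 4 members were called negative (3.36%) and 0 positive, against 1.37% and 2.96% of root spots. The unadjusted counts were 20 and 6. Under quantile scaling 10 members were called (8 negative), while calls over all 14866 root spots rose from 644 to 1341. The members' total was 7 with pair means, 0 without root salt 9 h replicate 1, 1 without replicate 3 and 1 without root control 9 h replicate 1. The pair 153714 and 154558 was called at both spots, with d of -0.58 ± 0.16 SE and -0.73 ± 0.17 SE (limma adjusted p = 0.0324 and 0.00922). Spot 154558 read -0.71, -0.15 and -0.45 in salt-treated roots, against 0.14, 0.39 and 0.35 in control roots. The same spot read -0.40, -0.49 and -0.60 in cold roots at 9 h, so its salt and cold arrays overlapped.

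Cold was also set directly against heat and against salt at 9 h in root. Cold was lower than heat for 89 of the 119 and higher for 0 by limma, against 18.0% and 17.6% of root spots, with unadjusted counts of 100 and 0. Cold was lower than salt for 62 (52.1%) and higher for 0, against 12.8% and 13.4%, with unadjusted counts of 75 and 2. Without single arrays the count was 72 to 85 against heat and 45 to 58 against salt, and under quantile scaling the count against salt was 34. Over all 14866 root spots that scaling called 2323 against salt, and the main fit 3888. The 9 h cold arrays serve in both contrasts and in the comparison with control, so the 3 counts are not independent of each other.

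Both spots of 23 pairs were called in cold against heat and of 17 in cold against salt. The shares over all printed pairs were not counted. Spot 153389 had the most negative called pair mean against heat, with a difference of -1.54 ± 0.19 SE (limma adjusted p = 3.05e-07), and its partner 155248 had -1.53 ± 0.20 SE (limma adjusted p = 6.09e-07). Against salt it was the pair 162167 and 163011, at -1.20 ± 0.20 SE and -1.02 ± 0.21 SE (limma adjusted p = 4.74e-05 and 0.000366). Spot 162167 read -0.76, -0.94 and -1.32 in cold roots, and 0.12, 0.15 and 0.29 in salt-treated roots, with 0.01, 0.06 and -0.18 in control roots. Its salt values lay above all its cold and control values.

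Heat and salt in leaf gave almost no calls at 3 h and 9 h. Under heat limma called 0 members in either direction at 3 h, against 0.237% negative and 0.378% positive of leaf spots, and 0 at 9 h, against 0.0320% and 0.135%. The unadjusted counts were 6 negative and 7 positive at 3 h and 5 and 6 at 9 h. Under salt 1 member was called negative at 3 h and 0 positive, against 0.0513% and 0.705%, with unadjusted counts of 5 and 1. At 9 h of salt 1 was called negative and 1 positive, against 4.19% and 3.81%, with unadjusted counts of 7 and 3. These 3 spots, named because the counts are small, were 160466 (d = -0.48 ± 0.11 SE, limma adjusted p = 0.0332) at 3 h, and 155731 (d = -0.69 ± 0.21 SE, limma adjusted p = 0.0426) and 162204 (d = 0.85 ± 0.24 SE, limma adjusted p = 0.0248) at 9 h. The call of 160466 was lost without any of 5 of the 6 arrays compared, and at 9 h of salt the count was at most 1 without any single array.

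A further 5 comparisons used control arrays that also entered the rule, so they are described with no test. Salt in root gave a median d of -0.24 at 3 h, with 98 of the 119 below 0, and -0.07 at 27 h, with 72 below 0, against 0.01 and 0.00 over all spots followed. A d of -0.5 or lower was seen in 21 members at 3 h of salt (17.6%, against 11.2% of all spots followed) and in 6 at 27 h (5.04%, against 4.17%). The pair 161311 and 162155 was the most negative under salt at both times, with d of -0.93 and -0.90 at 3 h and -0.73 and -0.63 at 27 h. Spot 161311 read -0.97, -1.15 and -0.999 in salt-treated roots at 3 h, against -0.27, 0.25 and -0.30 in control roots, with no overlap. Its d under cold in root was -0.41, -0.22 and -1.50 at 3, 9 and 27 h, of which the 3 h and 27 h values were bounded by the rule. At the other end, 158879 and 160738 had d of 0.28 and 0.32 at 3 h of salt, and 140539 and 141383 had 0.45 and 0.47 at 27 h.

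Heat in root at 3 h gave a median d of 0.12, with 71 of the 119 above 0. Over all spots followed the median was 0.02, with 7130 of the 13585 above 0. The extremes were the pair 137413 and 138257, at -0.66 and -0.65, and the pair 142426 and 144285, at 0.78 and 0.83. Spot 142426 read 0.78, 1.27 and 0.95 in heated roots at 3 h, against 0.51, 0.10 and 0.06 in control roots. This is the pair that was most negative in cold leaf at 3 h, and in root its cold arrays at 27 h read -1.18, -1.06 and -1.32 for 142426, against 0.28, 0.14 and 0.54 in control roots. After 3 h of cold in root its 2 spots had d of 0.07 and 0.12, also above 0, a time at which the rule held them between -0.5 and 0.5.

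In leaf at 27 h the medians were 0.02 under heat and -0.02 under salt, against 0.01 and 0.02 over all spots followed. The pair 144738 and 146597, the most negative of all in cold root, was the most negative under heat in leaf, with d of -0.77 and -0.78. Spot 144738 read -0.94, -0.71 and -0.51 in heated leaf, against 0.00, -0.07 and 0.21 in control leaf, and the groups did not overlap. The pair 142426 and 144285 was the most positive under heat, at 0.51 and 0.43, and under salt, at 0.43 and 0.37. The pair 153389 and 155248 was the most negative under salt, at -0.33 and -0.30.

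The rule set these spots apart from 708 other spots that also had d of -0.9 or lower after 27 h of cold in root and passed a bound of 0.5 in at least 1 of the other 3 comparisons. At 9 h, the median d of the 119 was -0.63 in cold root and -0.29 in cold leaf, against -0.84 and -0.60 for the 708. The 708 were also more negative after 27 h of cold in root, with a median of -1.23 against -1.01 for the 119. In the comparisons with heat and salt in root at 9 h, the 119 had medians of 0.09 and -0.08, and the 708 had -0.12 and -0.28. These differences were not tested, since the sets were split on arrays of the same tissue.

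The 5 members with a symbol belong to 3 genes, and they show how well a gene's spots agreed. Spots 143244, 144088 and 162139 carry the symbol LOC102583272, from 2 clones of the gene, and the fourth spot, 162983, missed the rule because d after 27 h of heat in root was -0.52. No role is given in the sources used here. At 27 h of cold in root the 4 spots had d of -1.44 to -1.33. At 9 h spot 143244 read -0.74, -0.69 and -1.51 in cold roots, against 0.44, 0.11 and -0.12 in control roots. Replicate 3 was the low array in the cold group and also the lowest of the controls, and the groups did not overlap.

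All 4 spots of LOC102583272 were called in root at 9 h of cold, from spot 143244 (d = -1.13 ± 0.26 SE, limma adjusted p = 0.00178) to spot 162983 (d = -1.16 ± 0.33 SE, limma adjusted p = 0.00874). In leaf they had d of -0.71 to -0.57 at 3 h of cold, with limma adjusted p of 0.0531 to 0.14, and the difference between tissues at 9 h was -0.80 to -0.77, with adjusted p of 0.199 to 0.296. Both clones had d of 0.31 to 0.59 after 3 h of heat in root and of -0.52 to -0.40 after 27 h of heat in root. The negative 27 h values rest on replicate 1, where the 4 spots read -1.64 to -1.15. On the heated arrays of replicates 2 and 3 they read -0.07 to -0.01 and 0.43 to 0.54, and the control arrays ran from -0.03 to 0.42. The 2 clones gave like values on the same arrays.

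Spot 152539 is annotated as DHAR, dehydroascorbate reductase, which uses glutathione to return oxidised ascorbate to its reduced form and so keeps up the antioxidant pool. It had only 2 values on cold arrays at 27 h in root, -0.94 and -1.29, against 0.38, 0.51 and 0.50 on control arrays. Its printed partner 151695 read -0.67, -1.03 and -0.79 in cold roots, against 0.55, 0.62 and 0.52 in control roots, and was left out because d after 3 h of cold in root was -0.57. At 9 h of cold in root 152539 had d of -0.66 ± 0.21 SE (limma adjusted p = 0.0195) and 151695 had -0.82 ± 0.18 SE (limma adjusted p = 0.000746). Salt at 9 h in root gave 0.39 for 152539 and 0.37 for 151695, and neither was called (limma adjusted p = 0.341 and 0.267). Cold was lower than salt by limma for both spots (adjusted p = 0.00034 for 152539).

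Not all DHAR spots did this. Spot 147123, from another clone with the same symbol, had d of 0.22 ± 0.24 SE at 9 h of cold in root (limma adjusted p = 0.557) and -0.32 at 27 h, and it was positive under heat at 9 h (d = 0.76 ± 0.21 SE, limma adjusted p = 0.0323). The symbol comes from an annotation of the array that can be old, and whether the clones report the same transcript was not tested. DHAR2, a second gene of the same enzyme that holds no member, had 4 spots with d of -0.93 to -0.83 at 9 h of cold in root and -0.55 to -0.35 at 27 h. The DHAR pair with the member was lower at 27 h than at 9 h, and the DHAR2 spots the other way round, with the difference between times not tested.

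Spot 156613, annotated as LOC102597590, was not called in root at 9 h of cold, but was called negative in leaf at that time. In root it read 0.14, 0.49 and 0.43 in cold roots at 3 h, against 0.20, -0.09 and -0.09 in control roots. At 9 h it read -0.10, 0.25 and -0.09 in cold roots, against 0.10, 0.18 and 0.39 in control roots (d = -0.20 ± 0.17 SE, limma adjusted p = 0.415), and the groups overlapped. In leaf at 9 h it read -0.06, -0.30 and 0.03 under cold, against 0.44, 0.53 and 0.07 in the control (d = -0.46 ± 0.16 SE, limma adjusted p = 0.0374), with no overlap. The printed partner 155769 was not called in leaf at 9 h of cold (d = -0.19 ± 0.20 SE, limma adjusted p = 0.548), so the call rests on 1 spot of the pair. At 27 h spot 156613 read -0.89, -0.97 and -1.22 in cold roots, against 0.08, 0.08 and -0.06 in control roots. Its partner 155769 read -0.51, -0.71 and -0.92 in cold roots at 27 h, against -0.15, -0.01 and 0.33 in control roots.

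**Figure D5:**
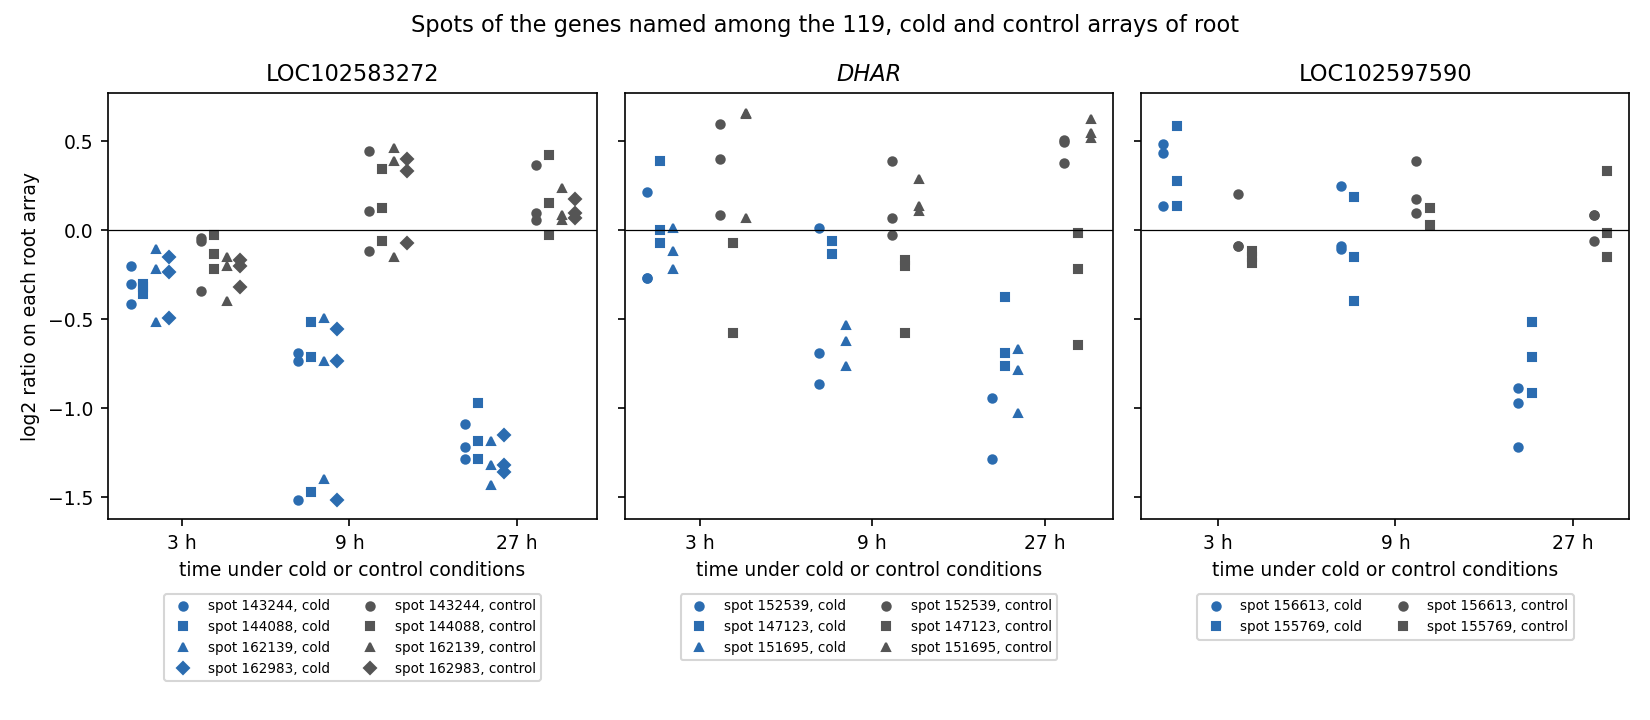
Log2 ratio on each root array (y axis) at 3, 9 and 27 h (x axis) for the spots of LOC102583272, DHAR and LOC102597590; blue points are cold arrays, grey points control arrays, and marker shapes are spots. All 4 spots of LOC102583272 lie between -1.51 and -0.49 at 9 h of cold, the 2 cold values of DHAR spot 147123 at 9 h lie at -0.14 and -0.06, within those of spot 152539, while its control values lie below those of spots 151695 and 152539 at each time, and both spots of LOC102597590 lie below their control arrays at 27 h of cold.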

How the data were processed

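The deposited table holds log2 ratios made by the authors, for 72 arrays in 24 groups of 3. The submitters' processing notes name limma with no role or version, while scanner, background correction and normalization are not stated there or in the labels. These deposited log2 ratios lay within 0.0015 of the log2 of ratios with 2 decimals, so low ratios come in coarse steps. Printed pairs were read from the row layout (15360 pairs), and in all 905 pairs of the array annotation both spots carry the same clone.

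Groups came from the sample titles. limma 3.58.1 in R 4.3.3 (lmFit, eBayes) was fitted to the 36 arrays of a tissue in 12 groups over spots with 2 or more values in every group (14866 in root, 15601 in leaf), and to all 72 arrays for the tissue difference (13585 spots). Benjamini-Hochberg adjustment ran over all spots tested, and a spot was called at an adjusted p of 0.05 or lower. Missing values were left missing. The procedure was tested on simulated data with independent noise on each array, so the test did not cover an effect shared by the arrays of an experiment. Replicate numbers pair the arrays, because a number is an independent experiment with a shared reference, and deviations of same-numbered stress and control arrays correlated with r of -0.04 to 0.44. A fit with this block, other scalings, filters, arrays and pair means were alternatives. In the main fit the experiment had no term. Its p-values and SE rest on the spread between the 3 arrays of a group, pooled over all groups of the fit. The spread was moderated across spots by eBayes, so it is not that of the compared groups alone.

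Members, lists and tests were chosen with earlier results of these data known. Pairs were named where both spots were members: the 2 most negative after 27 h of cold in root, the most negative and most positive called pairs in the tested comparisons (2 each in root cold 9 h), the extremes of the comparisons that share controls, and the spots at the bound. The array annotation gives 1630 spots with 1 gene symbol and 180 with several, matches 5 members, and carries no description, so no pathway list was used. Python 3.11.15 with pandas 2.3.3 and matplotlib 3.10.9 made the summaries and plots.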

Additional observations from a re-analysis of the deposited data

Results flagged for a closer look

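For 9 of the 119 spots the change under cold at 9 h differed between root and leaf by the direct limma test, which is why they are listed. All 9 were lower in root. They are 7.56% of the 119, while 4.09% of 13585 spots were called more negative in root and 4.95% more positive. In either direction 1227 of the 13585 were called. Under quantile scaling between arrays 0 members were called. The difference, root minus leaf, was -1.15 for spot 140595, -0.99 for spot 162204, -0.94 for spots 134601 and 134256, -0.90 for spot 132594, -0.86 for spot 151453, -0.81 for spot 134463, -0.79 for spot 155774 and -0.69 for spot 135524. Spots 162204, 140595 and 151453 had a positive d in leaf (0.30, 0.04 and 0.11), and the other six were negative in both tissues. After 27 h of cold these 9 spots had d of -1.32 to -0.90 in root and of -0.46 to 0.05 in leaf, values that the rule constrained.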

How the results depend on the processing

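The number of spots that met the rule was 207 and 61 with a bound of -0.8 and -1.0 in place of -0.9, 69 and 22 with bounds of 0.4 and 0.3 in place of 0.5, 32 under quantile scaling (21 of them among the 119) and 26 with arrays scaled to the same median absolute deviation (19 among the 119). Without single arrays it ranged from 106 to 149, with 90 to 117 of the 119 among them. Called members under quantile scaling numbered 13 in root heat 9 h, 10 in root salt 9 h, 4 in leaf cold 9 h, 2 in leaf heat 3 h and 2 in leaf heat 9 h, 1 in leaf salt 9 h, 0 in the tissue difference and 34 in cold against salt. Over all 14866 root spots, the same scaling called 2306 in heat 9 h, 1341 in salt 9 h and 2323 in cold against salt. Over 15601 leaf spots it called 1335 in cold 9 h, 507 in heat 3 h, 301 in heat 9 h and 672 in salt 9 h. In the tissue difference it called 223 of 13585 spots. Counts over all spots also changed under the settings below and are not given here. With only the compared groups fitted they numbered 2 in root heat 9 h, 12 in leaf cold 9 h, 0 in leaf salt 3 h and 4 in the tissue difference. Pair means gave 7 in root salt 9 h, 0 in leaf salt 3 h and 4 in leaf salt 9 h. Requiring 3 values gave 1 in leaf salt 9 h and 4 in the tissue difference, and no filter gave 1 in leaf salt 9 h. The cause was not tested. Without single arrays the counts ranged from 0 to 4 in root heat 9 h and in root salt 9 h, 15 to 30 in leaf cold 3 h, 14 to 28 in leaf cold 9 h, 0 to 1 in leaf salt 3 h and in leaf salt 9 h, and 4 to 11 in the tissue difference. Root cold 9 h had 60 to 76 calls without single arrays and 59 under quantile scaling. With the replicate block, the counts were 77 in root cold 9 h, 34 in leaf cold 3 h, 32 in leaf cold 9 h, 10 in the tissue difference, 92 against heat and 65 against salt. The block changed no call of a pair named as called. Among named spots, the calls of 144285, 150341 and 151185 in leaf cold 3 h and of 153389 and 155248 in leaf cold 9 h were lost under quantile scaling, with d of -0.98, 0.37, 0.44, -0.63 and -0.45. No spot of the pairs named as called changed sign with the block, median centring or quantile scaling. Signs of single spots were not followed in the other alternatives. The median d over members, near 0 in leaf salt, ran from -0.06 to 0.03 at 3 h and from -0.07 to 0.004 at 9 h. Calls in a direction with 0 calls before also appeared. Under quantile scaling 1 was negative in root heat 9 h, and 2 were positive in root salt 9 h, as with pair means, where 1 was positive without root control 9 h replicate 2. A further 2 were positive in cold against salt with only the compared groups and 1 and 2 in the tissue difference without leaf cold and root cold 9 h replicate 1. Ratios without intensities give no signal over background, so dim spots could not be set apart.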
